A study of Mus musculus with 24 samples.

Results

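Mitochondrial ribosomal protein genes were examined in the livers of mice fed 4 diets. The members were all probe sets of an Affymetrix mouse whole-genome array whose single gene symbol in the platform annotation began with Mrpl or Mrps followed by a digit. This rule gave 156 of 45101 probe sets, and 76 of the 18193 genes that had a probe set of their own. Of these probe sets, 133 passed the filter on low values and 23 did not, and every one of the 76 genes kept at least 1 probe set. The gene was then read from its probe set of highest mean, and 13385 genes of the array were tested in this way. Among the members, 49 encode proteins of the large ribosomal subunit, 26 encode proteins of the small subunit, and 1 (Mrps36) encodes a protein of another complex.

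The mitochondrial ribosome translates the few proteins encoded by mitochondrial DNA, which are subunits of the respiratory chain and of ATP synthase. Its ribosomal RNAs are transcribed from mitochondrial DNA, whereas all of its proteins are encoded in the nucleus, made in the cytosol and imported. Some of these proteins have bacterial homologues and others occur only in mitochondrial ribosomes. Liver is rich in mitochondria, and hepatocytes make up most of its mass.

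Liver RNA was taken from 24 female NMR-1 mice after 2 weeks of feeding, begun when the mice were 8 weeks old. The fast food diet was bought from a burger restaurant chain, the cafeteria diet was cooked food from a staff canteen, the chimpanzee diet was vegetables, fruit and yogurt as given to captive apes, and the pellet diet was the feed on which all of the mice had been raised. Each diet was given to 6 mice, with 3 livers in each of 2 processing batches and 1 array per mouse. The fast food and cafeteria diets were pooled as human diets (12 mice) where the question was how human diets differ from that of chimpanzees. The study posed the question in this way. It chose the pooling after finding no significant difference between these diets in liver expression of the same mice. No transgene, allele or drug separated the groups, no label gave the litter of a mouse, and the p-values measure the spread between single mice of 1 strain and sex. All values are log2 expression, as summarized by rma, and a difference of 1 is a doubling. Values of different probe sets are not comparable as levels.

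Promoters were read to show the sequence in front of the genes on which the results turn. The RefSeq table (GRCm38.p6) held promoters of 67 of the 76 members, and Mrpl13, Mrpl15, Mrpl19, Mrpl38, Mrpl4, Mrpl54, Mrps28, Mrps34 and Mrps35 were not in it. Both strands were searched, in 250 bases before to 50 bases after each start, for GCGCATGC (the core of nuclear respiratory factor 1, NRF-1, sites), CCGGAAGT (bound by GABPA and other ETS factors) and AAGATGGCG (YY1). These factors are known regulators of nuclear genes for mitochondrial proteins. The NRF-1 letters can overlap their own reverse complement, and such a pair counted as 1 promoter. Of 73 member promoters, 8 (11%) held the NRF-1 letters, against 2.71% of all 32851 promoters in the table. The ETS letters stood in 12 (16.4%) of the member promoters and in 3.89% of all, and the YY1 letters in 8 (11%) and in 1.4%. At least 1 of the 3 was found in 26 member promoters (35.6%) and in 7.57% of all promoters. Below are the 150 bases before the start of the 2 genes that passed the test between human and chimpanzee diets and of the 2 with the largest difference between chimpanzee and pellet diets, with motif letters in capitals.
Mrpl27 (chr11:94653641-94653790, + strand): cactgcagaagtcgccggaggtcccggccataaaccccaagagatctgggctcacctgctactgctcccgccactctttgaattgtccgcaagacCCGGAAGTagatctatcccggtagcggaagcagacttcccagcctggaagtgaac
Mrps14 (chr1:160195065-160195214, + strand): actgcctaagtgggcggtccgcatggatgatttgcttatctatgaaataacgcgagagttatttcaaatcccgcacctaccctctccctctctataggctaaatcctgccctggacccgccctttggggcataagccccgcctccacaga
Mrps22 (chr9:98601680-98601829, - strand): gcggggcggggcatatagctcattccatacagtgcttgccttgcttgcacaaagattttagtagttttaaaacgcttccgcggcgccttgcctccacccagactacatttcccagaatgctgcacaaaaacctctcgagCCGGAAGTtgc
Mrpl22 (chr11:58171514-58171663, + strand): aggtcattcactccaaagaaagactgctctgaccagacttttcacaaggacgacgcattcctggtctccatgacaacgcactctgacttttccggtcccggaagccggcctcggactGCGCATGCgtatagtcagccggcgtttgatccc
The ETS letters began 55 bases before the start of Mrpl27 and 11 bases before that of Mrps22, and the NRF-1 letters began 33 bases before that of Mrpl22. None of the 3 was found in the window of Mrps14. A match is a run of letters and says nothing of binding in these livers.

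The arrays differed in signal range. Their 90th percentile of log2 values averaged 6.04 ± 0.20 (SD) in batch 2 and 6.50 ± 0.07 in batch 1 (12 mice each). The lowest 4 arrays were replicate 3 of the cafeteria diet, replicates 1 and 2 of the chimpanzee diet and replicate 2 of the fast food diet, all in batch 2. These same 4 mice had the lowest means of the 76 members, at 6.08, 6.16, 6.14 and 6.26 in that order, and they held the lowest value of the 24 mice in 30, 16, 17 and 7 of the 76 genes, against 20.3%, 7.84%, 6.01% and 7.24% of all genes. The beta-actin control, whose 3' minus 5' value increases as RNA is degraded or copied incompletely, averaged 0.80 ± 0.13 under fast food, 0.91 ± 0.05 under cafeteria food, 1.08 ± 0.15 under the chimpanzee diet and 0.75 ± 0.14 under pellets (6 mice each). Hepatocyte markers (7 of 8 measured) had a mean between 11.5 and 12.1 in every mouse. Kupffer cell markers (7 of 7 measured) had means of 5.79 to 6.73 in fast food mice, 5.11 to 6.58 in cafeteria mice, 5.15 to 6.20 in chimpanzee diet mice and 5.90 to 6.61 in pellet mice. Of these 7 Kupffer cell markers 4 were lower under the chimpanzee diet than under pellets and 0 were higher (median difference -0.68), where 10.4% of all genes were called and 7.43% were called as lower, while between human and chimpanzee diets 0 were called (median difference 0.325). Of 6 endothelial markers 5 were negative between chimpanzee and pellet diets and 1 was positive (median -0.115), and Oit3 was called as lower. Of 6 stellate cell markers 5 were negative and 1 was positive (median -0.164), with 0 called. The adipocyte, cholangiocyte, erythroid, lymphocyte and pancreatic acinar lists had positive medians there, with 0 called. The part of all these values in the results below was not tested. In whole liver fewer cells of a type and less RNA per cell cannot be told apart.

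**Figure D1:**
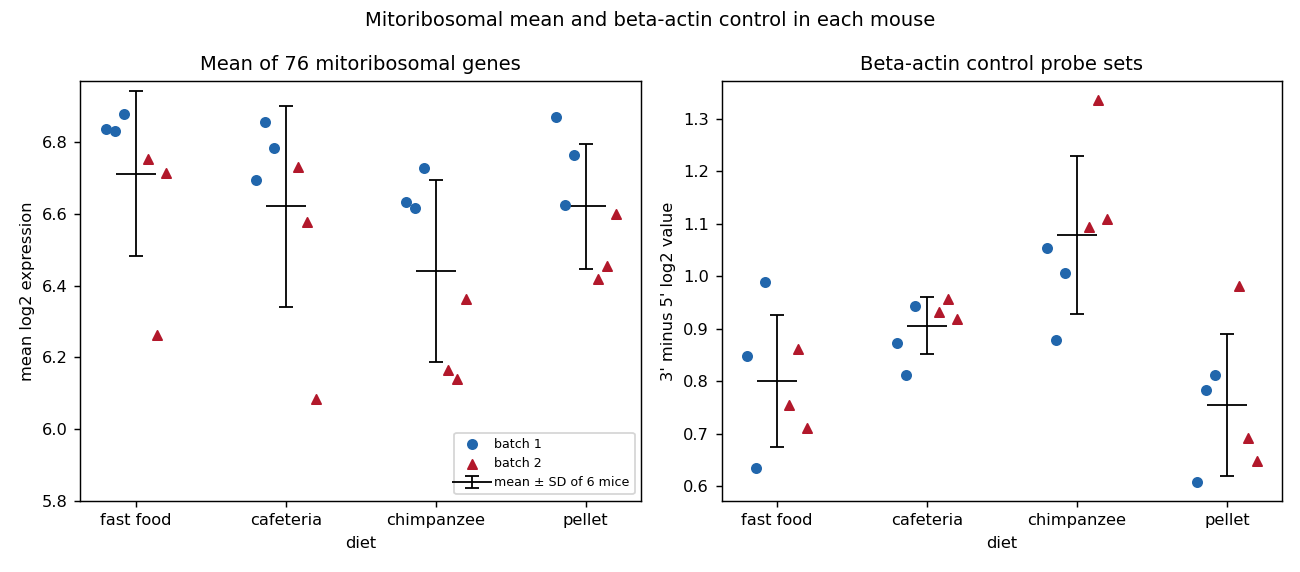
Mean log2 expression of the 76 mitoribosomal genes (left) and 3' minus 5' log2 value of the beta-actin control (right), each point 1 mouse, by diet and batch, with the mean and SD of 6 mice as bars. The chimpanzee diet has the lowest mean on the left (6.44) and the highest on the right (1.08), and 4 mice of batch 2 lie below 6.3 on the left.

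As a group the members were lowest under the chimpanzee diet. The mean of the 76 genes was 6.71 ± 0.23 (SD) under fast food, 6.62 ± 0.28 under cafeteria food, 6.44 ± 0.25 under the chimpanzee diet and 6.62 ± 0.17 under pellets (6 mice each), and the mice of the 4 diets overlapped. The chimpanzee diet gave the lowest of the 4 diet means in 61 of the 76 genes (80.3%), against 32.2% of all genes tested. Fast food gave the lowest mean in 0 members and the highest in 51 (67.1%, against 21.8% of all genes). Cafeteria food gave the lowest mean in 5 members and pellets in 10. With the arrays rescaled by cyclic loess, the chimpanzee diet was lowest in 47 members (61.8%, against 27.3% of all genes). Fast food was then highest in 41 (53.9%, against 20%). With quantile normalization the counts were 51 (67.1%, against 27.1%) and 38 (50%, against 19.6%). Pellets were lowest in 21 members after cyclic loess and in 18 after quantile normalization. The chimpanzee diet was highest in 7 members after either rescaling, against 1 in the deposited values. The batches differed too, since 72 of the 76 genes were lower in batch 2, with a median difference of batch 2 minus batch 1 of -0.31, against 59% of all genes and a median of -0.12.

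**Figure D2:**
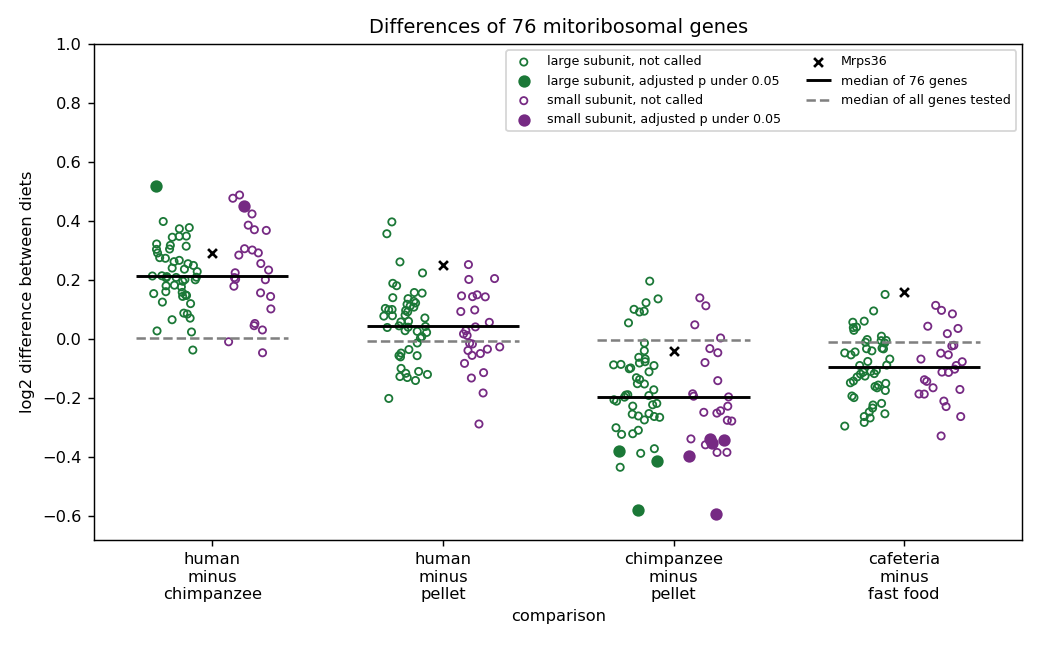
Log2 difference between diets of each of the 76 genes in 4 comparisons, with large subunit genes on the left and small subunit genes on the right of each column, filled where the adjusted p was under 0.05. The black lines are medians of the 76 genes (0.21, 0.04, -0.19 and -0.10) and the dashed lines those of all 13385 genes.

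The human diets were compared with the chimpanzee diet, which is the main question of the study. Mrpl27 and Mrps14 were higher under human diets and were the only members that passed the test. Of the 76 members 73 had a positive difference (96.1%, against 51.4% of all genes). After cyclic loess, and also after quantile normalization, 65 members did. The median difference of the members was 0.21, against 0.00395 over all genes tested. The 2 calls are 2.63% of the members, where 1.49% of all genes were called and 1.15% were called as higher. At an unadjusted p of 0.05 there were 42 members (55.3%), all higher, against 14.3% of all genes.

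Mrpl27, whose bacterial homologue reaches into the peptidyl transferase centre of the large subunit, ranged from 8.21 to 8.91 (median 8.65) in the 12 human diet mice and from 7.78 to 8.44 (median 8.11) in the 6 chimpanzee diet mice. The groups overlapped over all mice, but within each batch every human diet mouse was above every chimpanzee diet mouse. The difference was 0.52 ± 0.10 (SE), or 1.43-fold (adjusted p = 0.0105), with 0.31 in batch 1 and 0.72 in batch 2. Mrps14, a small subunit protein that contacts ribosomal RNA, ranged from 7.06 to 7.94 (median 7.72) in human diet mice and from 6.89 to 7.54 (median 7.26) in chimpanzee diet mice. Batch 1 was again without overlap, whereas in batch 2 replicate 3 of the cafeteria diet (7.06) fell among the chimpanzee diet mice. The difference of Mrps14 was 0.45 ± 0.10 (1.37-fold, adjusted p = 0.0296). A second probe set of Mrps14 differed by 0.21 (adjusted p = 0.204 with every probe set tested), and a second, dim probe set of Mrpl27 by 0.13 (adjusted p = 0.467).

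**Figure D3:**
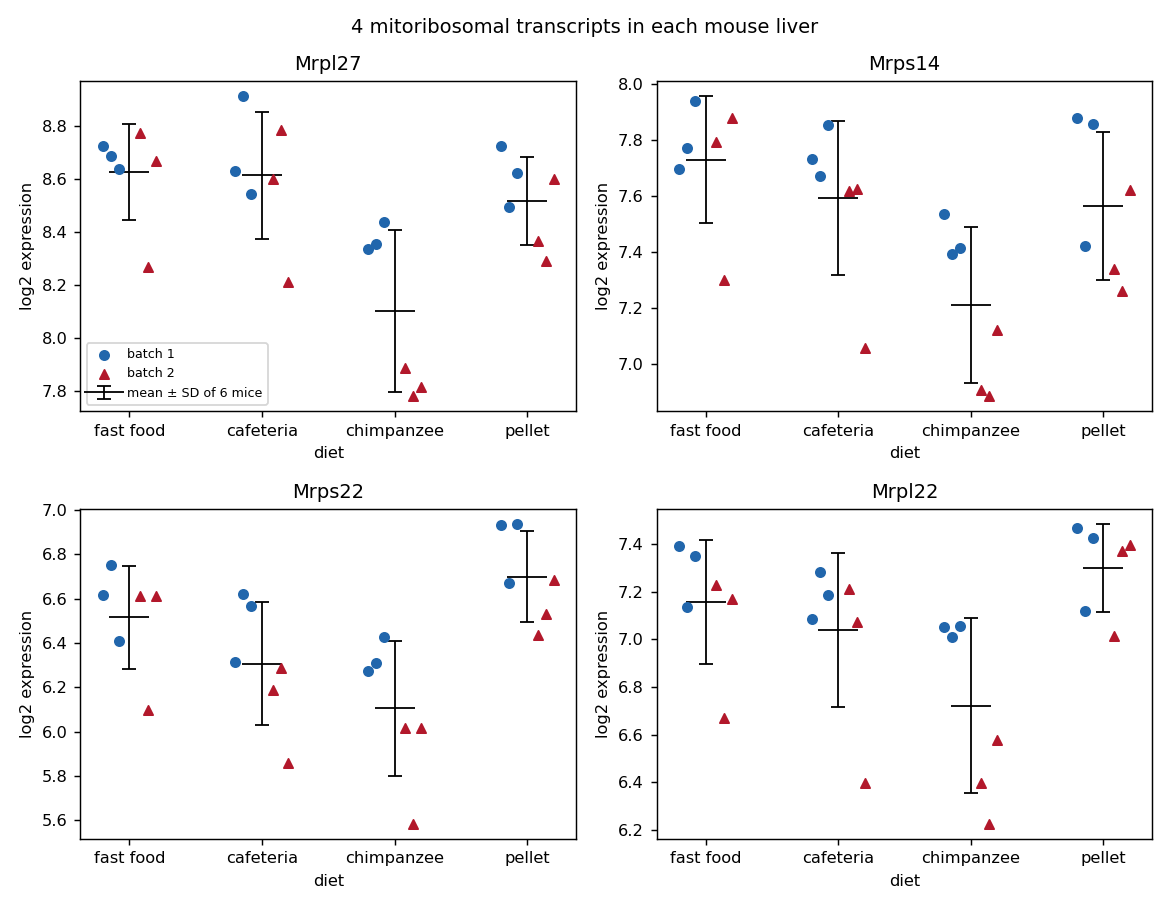
Log2 expression of Mrpl27, Mrps14, Mrps22 and Mrpl22 in each of the 24 mice by diet and batch, with the mean and SD of 6 mice. In all 4 genes the chimpanzee diet has the lowest mean, and the 3 chimpanzee diet mice of batch 2 are lower than those of batch 1.

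Mrps18c and Mrpl35 came next and missed the threshold. Mrps18c, 1 of 3 mitochondrial relatives of a bacterial small subunit protein, ranged from 7.12 to 7.86 (median 7.62) in human diet mice and from 6.90 to 7.47 (median 7.15) in chimpanzee diet mice, a difference of 0.39 ± 0.10 (adjusted p = 0.0525). Mrpl35, a large subunit protein, ranged from 7.29 to 8.04 (median 7.95) under human diets and from 7.13 to 7.82 (median 7.43) under the chimpanzee diet, a difference of 0.40 ± 0.10 (adjusted p = 0.0533). In both genes 9 of the 12 human diet mice were above the highest chimpanzee diet mouse. Other differences above 0.4 were those of Mrps25 (0.49, adjusted p = 0.104), Mrps28 (0.48, adjusted p = 0.0598) and Mrps5 (0.42, adjusted p = 0.156), all of the small subunit. The 3 members with a negative difference were Mrps23 (-0.05), Mrpl34 (-0.04) and Mrps6 (-0.01).

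The shift was spread over the classes of protein. The median difference was 0.21 in the 49 large subunit genes (1 called, 2.04%) and 0.23 in the 26 small subunit genes (1 called, 3.85%). It was 0.21 in the 44 genes with bacterial homologues, which include both calls, and 0.21 in the 31 specific to mitochondria. Of all genes 1.49% were called. Within batches the median of all 76 was 0.15 (batch 1) and 0.29 (batch 2). With the beta-actin value as a covariate 0 members were called (0.0374% of all genes) and the median was 0.11, and without batch in the model 0 were called (0.254% of all genes). Without replicate 3 of batch 2 on the cafeteria diet 21 members were called (4.95% of all genes), without replicate 2 of batch 2 on fast food 7 (2.97% of all genes), and 1 was called (between 0.463% and 0.844% of all genes) without either of chimpanzee diet replicates 2 and 3 of batch 1 or 1 and 2 of batch 2, or without cafeteria replicate 2 of batch 2.

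**Figure D4:**
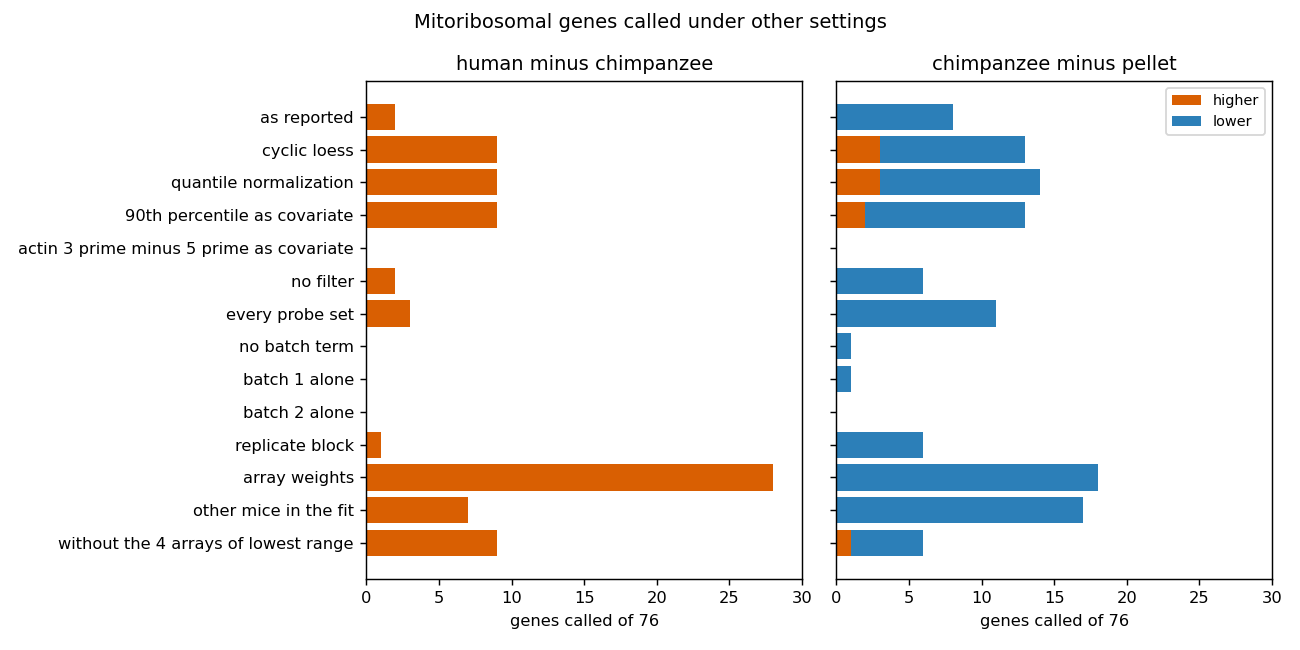
Number of the 76 mitoribosomal genes called at an adjusted p of 0.05 under the reported setting and 13 others, for human minus chimpanzee (left) and chimpanzee minus pellet (right), split into higher and lower. The counts run between 0 and 28 on the left and between 0 and 18 on the right.

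The chimpanzee diet was also compared with the pellets on which the mice grew up, using the same chimpanzee diet mice as above. Under the chimpanzee diet 8 members were lower and 0 were higher: Mrps22, Mrpl22, Mrpl27, Mrps27, Mrps11, Mrps31, Mrpl40 and Mrps14. They are 10.5% of the members, which is close to the share of all genes called (10.4%), and 7.43% of all genes were called as lower. The median difference was -0.19, against -0.00439 over all genes, and 65 of the 76 members had a negative difference. It was positive in 11 members (14.5%, against 48.7% of all genes), in 24 after cyclic loess and in 22 after quantile normalization. At an unadjusted p of 0.05 there were 27 members (35.5%), all lower, against 22.1% of all genes.

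Mrps22, a small subunit protein found only in mitochondrial ribosomes and mutated in inherited deficiencies of the respiratory chain in humans, ranged from 5.59 to 6.43 (median 6.15) in chimpanzee diet mice and from 6.44 to 6.94 (median 6.68) in pellet mice. All 6 chimpanzee diet mice were below all 6 pellet mice, though the closest pair differed by 0.01. Its difference was -0.59 ± 0.11 (1.51-fold lower, adjusted p = 0.000717). Mrpl22, whose bacterial homologue lines the exit tunnel of the ribosome, ranged from 6.23 to 7.06 (median 6.79) in chimpanzee diet mice and from 7.02 to 7.47 (median 7.38) in pellet mice. The groups overlapped over all mice and were apart within each batch. Its difference was -0.58 ± 0.13 (1.49-fold lower, adjusted p = 0.00533), with -0.30 in batch 1 and -0.86 in batch 2. Mrpl27 ranged from 7.78 to 8.44 (median 8.11) in chimpanzee diet mice and from 8.29 to 8.72 (median 8.55) in pellet mice, a difference of -0.41 ± 0.11 (adjusted p = 0.0131). It was below the pellet mice throughout in both batches.

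The other 5 were nearer the threshold. Mrps27, a small subunit protein with pentatricopeptide repeats, had a median of 4.31 in chimpanzee diet mice and of 4.62 in pellet mice (difference -0.34 ± 0.09, adjusted p = 0.0176). Mrps11, from the platform of the small subunit, had medians of 4.78 and 5.18 in the same order (-0.34 ± 0.10, adjusted p = 0.0231). Mrps27 was apart in both batches and Mrps11 in batch 2 only. Mrps31, another mitochondria-specific small subunit protein, had a median of 6.39 in chimpanzee diet mice and of 6.75 in pellet mice (-0.39 ± 0.12, adjusted p = 0.0386). Mrpl40, whose human gene lies in the region deleted in velocardiofacial syndrome, had a median of 6.12 in chimpanzee diet mice and of 6.53 in pellet mice (-0.38 ± 0.12, adjusted p = 0.0439). For Mrps14 the medians were 7.26 in chimpanzee diet mice and 7.52 in pellet mice (-0.35 ± 0.11), and its adjusted p of 0.04997 was the last below the threshold. Just above it were Mrpl35 (-0.32, adjusted p = 0.0628) and Mrps16 (-0.25, adjusted p = 0.0703).

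By subunit, 5 of the 26 small subunit genes were lower (19.2%, median -0.245) and 3 of the 49 large subunit genes (6.12%, median -0.19). Of all genes 7.43% were called as lower, and a difference between the subunits was not tested. The 11 members with a positive difference included Mrpl9 (0.20), Mrps23 (0.14), Mrpl34 (0.14) and Mrpl12 (0.12), none of which passed. After cyclic loess 10 members were lower and 3 were higher (Mrpl9, Mrpl34 and Mrps24), where 15% of all genes were called, and after quantile normalization 11 were lower and 3 were higher (Mrpl12, Mrpl15 and Mrps24), where 13.6% were. The median of the members was then -0.08 and -0.10. With the beta-actin value as a covariate 0 were called (median -0.04, with 1.58% of all genes called), and 4 or 5 were called (between 7.52% and 8.55% of all genes) when either of pellet replicates 1 and 3 of batch 1, pellet replicate 3 of batch 2, chimpanzee diet replicate 1 of batch 1 or chimpanzee diet replicates 1 and 2 of batch 2 was left out.

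Between human diets and pellets no member was called with limma (0 of 76, where 4.98% of all genes were called), and the median difference was 0.04. At an unadjusted p of 0.05 there were 8 members (10.5%, against 14.5% of all genes), of which 7 were higher and Mrps22 was lower. Mrpl15, a large subunit protein, ranged from 8.27 to 8.90 (median 8.70) in human diet mice and from 7.99 to 8.62 (median 8.47) in pellet mice, a difference of 0.26 ± 0.08 (adjusted p = 0.0804). Mrpl18, whose bacterial homologue binds 5S ribosomal RNA, had medians of 6.45 under human diets and 5.94 under pellets (0.36 ± 0.12, adjusted p = 0.0929). Mrps21 differed by 0.21 ± 0.07 (adjusted p = 0.109) and Mrps35 by 0.25 ± 0.09 (adjusted p = 0.125), both of the small subunit. Mrps22 had a median of 6.49 in human diet mice and of 6.68 in pellet mice (-0.29 ± 0.10, adjusted p = 0.13). The groups overlapped in all 5 of these genes. Without the 4 arrays of lowest range 8 members were called (8.79% of all genes), without replicate 3 of batch 2 on the cafeteria diet 3 (6.42%), and without cafeteria replicate 1 (5.85%) or fast food replicate 2 (5.09%) of that batch 1.

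Between the cafeteria and fast food diets no member was called either, and 1 of all 13385 genes (0.00747%) was called. The 4 members at an unadjusted p of 0.05 were 5.26% of the members, close to the 5.11% of all genes. The median difference of the members was -0.10, against -0.0106 over all genes, and 61 of the 76 members were lower under cafeteria food. The other 15 (19.7%, against 45.7% of all genes) were higher, and 26 were after cyclic loess and 27 after quantile normalization. All 4 members with the smallest p were lower. Mrpl40 had a median of 6.29 in cafeteria mice and of 6.57 in fast food mice (-0.29 ± 0.12, adjusted p = 0.895), Mrps9 of 4.78 and 4.84 in that order (-0.23 ± 0.11, adjusted p = 0.939). Mrpl38 differed by -0.22 ± 0.10 (adjusted p = 0.969) and Mrpl16 by -0.28 ± 0.14 (adjusted p = 0.97). The median moved to -0.02 without cafeteria replicate 3 of batch 2 and to -0.04 without fast food replicate 1 of batch 2, and it was -0.15 without fast food replicate 2 or cafeteria replicate 1 of that batch.

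A test over the 4 diets together, which asks only whether any diet differs, called 8 members, or 10.5%, where 9% of all genes were called. They were Mrps22 (adjusted p = 0.00313), Mrpl27 (adjusted p = 0.00411), Mrps14 (adjusted p = 0.0184), Mrpl22 (adjusted p = 0.0242), Mrpl40 (adjusted p = 0.0326), Mrpl35 (adjusted p = 0.0386), Mrps18c (adjusted p = 0.039) and Mrps16 (adjusted p = 0.048). In each of the 8 the chimpanzee diet had the lowest mean. Mrps16, a small subunit protein with a bacterial homologue, ranged from 8.11 to 8.59 under fast food, from 8.05 to 8.44 under cafeteria food, from 7.82 to 8.17 under the chimpanzee diet and from 8.08 to 8.43 under pellets. Its 4 diets overlapped, and its pellet and cafeteria means (8.22 and 8.21) were almost equal. The count was 2 without chimpanzee diet replicate 1 of batch 2 (7.52% of all genes), 3 without its replicate 2 (7.67%), 12 without cafeteria replicate 1 of batch 2 (11.7%), 17 without fast food replicate 2 of batch 2 (11.4%) and 19 without cafeteria replicate 3 of batch 2 (12.8%). It was 4 or 5 (between 6.87% and 9.07% of all genes) without chimpanzee diet replicate 1 of batch 1 or 3 of batch 2, fast food replicate 1 or 3 of batch 2, cafeteria replicate 2 of batch 1, pellet replicate 1 or 3 of batch 1, or any pellet mouse of batch 2.

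Some members carry names that do not give their place. The products of Mrps18a and Mrps30 sit in the large subunit. Mrps18a averaged 6.62 ± 0.32 (SD) under fast food, 6.35 ± 0.35 under cafeteria food, 6.29 ± 0.36 under the chimpanzee diet and 6.59 ± 0.30 under pellets, and Mrps30 had means of 6.20, 5.97, 5.94 and 6.19 in that order. Neither passed any test. Of the 3 Mrps18 relatives, human diets differed from the chimpanzee diet by 0.20 ± 0.13 in Mrps18a, by 0.14 ± 0.10 in Mrps18b and by 0.39 ± 0.10 in Mrps18c. Whether these differences are unequal was not tested. Mrps36, a subunit of the 2-oxoglutarate dehydrogenase complex of the citric acid cycle, had its highest mean under cafeteria food (6.08 ± 0.30) and lower means under fast food (5.93 ± 0.17), the chimpanzee diet (5.71 ± 0.30) and pellets (5.75 ± 0.13). It was called in no comparison.

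Probe sets of a gene did not always move together. Of the 76 genes, 34 had 1 probe set, 18 had 2 and 24 had more, up to 8 for Mrpl15. The 57 probe sets that passed the filter but did not represent their gene had a median of 0.13 between human and chimpanzee diets (46 of 57 positive) and of -0.09 between chimpanzee and pellet diets (15 of 57 positive). Some of the 57 lay near the filter level of 3.147, such as one of Mrpl35 (mean 3.03) and one of Mrpl21 (mean 3.08). Such dim probe sets can show little difference. For Mrpl15 the probe set of highest mean differed by 0.10 between chimpanzee and pellet diets, whereas another, of a type that can read related transcripts, differed by -0.51 (adjusted p = 0.00533 with every probe set tested). A further probe set of Mrpl15 was 0.39 higher under human diets than under the chimpanzee diet (adjusted p = 0.0383), against 0.16 for the one of highest mean (adjusted p = 0.329).

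Related gene lists give the surroundings of these values. Between human and chimpanzee diets the medians were 0.21 in 11 mitochondrial translation factors and 0.10 in 27 assembly and ribosomal RNA modification factors. They were 0.145 in 18 genes for mitochondrial DNA expression and 0.08 in 20 genes for mitochondrial aminoacyl-tRNA synthesis. A list of mitochondrial content (20 genes of membrane, import and matrix proteins) had a median of 0.13. The 10 regulators of mitochondrial biogenesis had a median of 0.0066, with 5 of 10 positive and 0 called. Of the genes of these lists 1 was called, Hsd17b10, a subunit of mitochondrial ribonuclease P, which was higher (0.37 ± 0.08, adjusted p = 0.0186). Of all genes 1.49% were called and 1.15% were called as higher. The 4 mitoribosomal proteins under other names had a median of 0.255, and Dap3, a small subunit protein that binds GTP, differed by 0.37 ± 0.10 (adjusted p = 0.078). Of 34 complex I subunits 33 were positive, with a median of 0.20, and Ndufb3 (0.51 ± 0.11, adjusted p = 0.0271) and Ndufs4 (0.41 ± 0.08, adjusted p = 0.0186) were higher. The 46 cytosolic ribosomal proteins had a median of 0.03, which was -0.06 after cyclic loess and -0.04 after quantile normalization, and Rpl14 was called as higher (0.42 ± 0.09, adjusted p = 0.0278). After cyclic loess the members had a median of 0.14 and complex I of 0.11.

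Between chimpanzee and pellet diets the medians of these lists ran between -0.265 and 0.065. The lowest was that of the mitoribosomal proteins under other names and the highest that of the mitochondrial content list. Of all 13385 genes 10.4% were called here, 995 as lower and 392 as higher. The genes for mitochondrial aminoacyl-tRNA synthesis (median -0.08) and those for mitochondrial DNA expression (median -0.10) had 0 called. The translation factors had a median of -0.18, and 2 of 11 were lower: Mtfmt, which formylates the initiator methionyl-tRNA (-0.34 ± 0.09, adjusted p = 0.019), and Gfm2, which recycles ribosomes (-0.54 ± 0.15, adjusted p = 0.0221). Of the 27 assembly factors (median -0.04) 1 was lower, the ribosomal RNA methyltransferase Mettl15 (-0.53 ± 0.15, adjusted p = 0.0213). Complex I had a median of -0.07 with 0 of 34 called. After cyclic loess its median was 0.00225 with 5 called as higher, where 15% of all genes were called. After quantile normalization its median was 0.02 with 5 called as higher, where 13.6% of all genes were called. The cytosolic ribosomal proteins had a median of -0.02 with 0 called. In the mitochondrial content list Phb2, a prohibitin of the inner membrane, was higher (0.28 ± 0.09, adjusted p = 0.0493). Of 10 regulators of mitochondrial biogenesis (median -0.00514) 1 was higher, the nuclear receptor Esrra (0.34 ± 0.10, adjusted p = 0.035).

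Between human and pellet diets 0 members were called, where 4.98% of all 13385 genes were called (288 higher and 378 lower). Of 34 complex I subunits 4 (11.8%) were higher (Ndufa5, Ndufs7, Ndufb10 and Ndufv2, between 0.30 and 0.41), with a median of 0.13. Phb2 (0.35 ± 0.09, adjusted p = 0.0205) and Tomm40, the channel of the outer membrane import complex (0.52 ± 0.14, adjusted p = 0.0388), were higher too, and Gars, the glycyl-tRNA synthetase of cytosol and mitochondria, was lower (-0.34 ± 0.10, adjusted p = 0.0406). Between cafeteria and fast food diets 0 genes of these lists were called, where 1 of all 13385 genes was called.

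**Figure D5:**
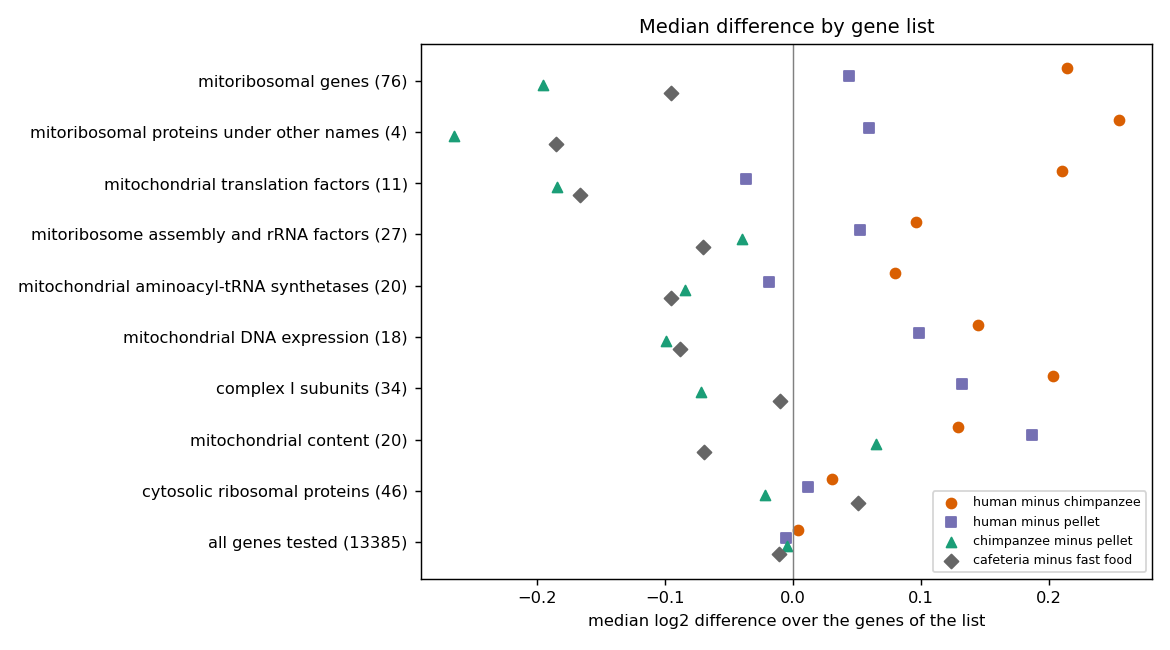
Median log2 difference of each gene list in the 4 comparisons, with the number of genes tested in brackets. The mitoribosomal genes lie at 0.21 for human minus chimpanzee and -0.19 for chimpanzee minus pellet, and the cytosolic ribosomal proteins at 0.03 and -0.02.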

How the data were processed

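Liver RNA of 24 mice was hybridized to 1 Affymetrix array each. The authors deposited log2 values made with rma (package affy), which corrects background, normalizes by quantiles and summarizes probe sets. The deposited arrays did not share 1 distribution, since their 90th percentiles ran between 5.66 and 6.61, and why was not stated. The version of affy and the set of arrays normalized together were not given in the sources used here. Nothing was normalized again in the main setting, and the number of arrays limits the precision.

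A probe set was kept if at least 6 of 24 arrays exceeded 3.147, the median of the whole table. Each gene took its probe set of highest mean (13385 genes). Genes were named from the platform annotation, in which 34945 probe sets had 1 symbol, 932 several and 9160 none, with 64 controls left out. Of the several-symbol probe sets, 4 name a mitoribosomal gene and were no members. Tests used limma 3.58.1 in R 4.3.3 (lmFit, eBayes), with batch as covariate, two-sided, and Benjamini-Hochberg adjustment over all genes, at 0.05. Human diets were pooled and compared in fits of 18 mice, and pairs of diets within 1 fit of 24. The fits were tested on simulated data. In the text are the called members (at most 12 a comparison), the 4 of smallest p where fewer than 4 were called, the Mrps18 relatives, Mrps30 and Mrps36, and up to 4 called genes of each list. Mrps5, Mrps25, Mrps28 and the members at either end of a range were added after their values were seen. The members, lists and markers were chosen with earlier results of these data known.

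Alternatives were cyclic loess, quantile normalization, the 90th percentile or the beta-actin value as covariate, other filters and probe sets, and no batch. Further ones were single batches, a replicate block, array weights, an intensity trend, and the other diets' mice added to or taken from a fit. The 4 arrays of lowest range were also omitted, and each mouse in turn. The last alternative, here called the methods' procedure, was modelled on that of the study. It used an unmoderated model, an unadjusted p of 0.01 and the smallest p over the probe sets of a gene. Probe sets with an interaction of diet and batch at p under 0.05 were left out. Its filter was the median of the table, exceeded in at least 2 arrays, and not the detection p-values of the study. Its pairs of diets were tested by contrasts in the model of all diets, without the study's Tukey test.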

Additional observations from a re-analysis of the deposited data

Results flagged for a closer look

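In 22 named members, 88 groups of 6 mice were examined for a mouse far from the rest, and 7 stood out. Chance would single out about 1 group in 20 if the groups were independent samples. These groups share the same 24 mice and each spans 2 batches, so the 7 cannot be set against that rate. All 7 were low values in 2 arrays, both among the 4 of lowest signal range. In replicate 2 of batch 2 on the fast food diet, Mrpl22 was 6.67 (next lowest 7.14), Mrpl27 was 8.27 (next 8.64), Mrpl35 was 7.29 (next 7.88) and Mrpl38 was 6.22 (next 6.80). In replicate 3 of batch 2 on the cafeteria diet, Mrpl22 was 6.40 (next 7.07), Mrpl38 was 6.05 (next 6.55) and Mrps14 was 7.06 (next 7.62). The difference between human and chimpanzee diets had a median of 0.24 over the members without this fast food mouse and of 0.25 without this cafeteria mouse, against 0.21 with both.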

How the results depend on the processing

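Of 20 differences of named members recomputed under the alternatives, 0 changed sign, and neither did the medians of the members. These 20 were picked for small p in the same mice that the alternatives reuse, so a kept sign shows little. Of 772 recomputed values of these differences, 623 kept their status, 106 lost a call and 43 gained one. In chimpanzee minus pellet Mrps14 lost its call in 26 of 41 alternatives, Mrpl40 in 23 and Mrps22 in 2. In human minus chimpanzee Mrps14 lost its call in 10 of 35. Other members given in the text were not followed in this way. The median stayed between 0.11 and 0.29 for human minus chimpanzee, 0.01 and 0.13 for human minus pellet, -0.26 and -0.04 for chimpanzee minus pellet and -0.15 and -0.02 for cafeteria minus fast food. The number of members called did not hold, the share of all genes called (given in brackets) moved as well, and the cause was not tested.

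For human minus chimpanzee (2 called) it was 9 with cyclic loess (4.11%), 9 with quantile normalization (3.56%), 9 with the 90th percentile as covariate (4.59%), 9 without the 4 arrays of lowest range (2.76%), 28 with array weights (9.5%), 7 with other mice in the fit (3.16%), 18 by the methods' procedure (6.1%) and 0 with the beta-actin covariate (0.0374%), without batch (0.254%), in batch 1 alone (0.799%) and in batch 2 alone (0.00747%). It ran between 1 and 21 with 1 mouse left out. For human minus pellet (0) it was 5 with cyclic loess (9.11%), 4 with quantile normalization (8.71%), 7 with the 90th percentile (10.3%), 7 with array weights (9.88%), 1 with other mice in the fit (5.75%), 8 without the 4 arrays (8.79%) and 2 by the methods' procedure (7.69%), and between 0 and 3 with 1 mouse left out. For chimpanzee minus pellet (8) it was 13 with cyclic loess (15%), 14 with quantile normalization (13.6%), 13 with the 90th percentile (15.3%), 18 with array weights (17.5%), 17 with other mice in the fit (14.8%), 15 by the methods' procedure (13.5%), 5 with an intensity trend (9.9%), 1 without batch (3.53%), 1 in batch 1 alone (7.92%), and 0 with the beta-actin covariate (1.58%) and in batch 2 alone (0.187%). With 1 mouse left out it ran between 4 and 11. For cafeteria minus fast food (0) it was 3 by the methods' procedure (1.79%) and 0 otherwise, also with each mouse left out. Across the 4 diets (8) it was 19 with cyclic loess (16.1%), 15 with quantile normalization (14.5%), 20 with the 90th percentile (17.3%), 40 with array weights (20.2%), 22 without the 4 arrays (13.1%), 15 by the methods' procedure (11.9%), 5 with an intensity trend (8.61%), 0 with the beta-actin covariate (3.66%), without batch (2.85%), in batch 1 alone (5.57%) and in batch 2 alone (0.105%), and between 2 and 19 with 1 mouse left out.

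The labels do not say what a replicate number stands for, and the correlations below cannot exclude that it pairs the mice. Deviations of same-numbered mice correlated between -0.635 and 0.407 over 36 pairs (mean -0.01), and those of other numbers had a mean of 0.01 over 72 pairs. With the replicate block the counts were 1 (0.994%), 0 (4.58%), 6 (9.68%), 0 (0%) and 5 (8.06%) in the order above.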

Other observations

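The 4 probe sets whose annotation names a mitoribosomal gene together with another gene were not members. One of the 2 shared by Mrpl30 and Gm6238 averaged 8.39 ± 0.28 (SD) under fast food, 8.28 ± 0.16 under cafeteria food, 8.03 ± 0.23 under the chimpanzee diet and 8.11 ± 0.22 under pellets, and the other 4.38 ± 0.32, 4.39 ± 0.17, 4.37 ± 0.18 and 4.43 ± 0.18 in the same order of diets. The probe set of Mrps34 and Nme3 averaged 6.80 ± 0.09, 6.80 ± 0.23, 6.73 ± 0.05 and 6.86 ± 0.11, and that of Mrpl53 and Ccdc142 averaged 7.55 ± 0.17, 7.59 ± 0.16, 7.37 ± 0.36 and 7.47 ± 0.19 in that order. All 4 had their lowest mean under the chimpanzee diet.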
